A study of Mus musculus with 41 samples.

Results

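PU.1 is the myeloid transcription factor encoded by Spi1, and the sites described here are those where its ChIP-seq peak in mouse microglia met no open chromatin and no active mark. A peak of the ex vivo PU.1 list was counted as PU.1-alone when it shared not even 1 bp with a peak of the ex vivo ATAC, H3K4me2 or H3K27ac list. By that rule 20643 of 79601 PU.1 peaks were PU.1-alone, which is 25.9% of the list. The members were therefore chosen on the ex vivo peak calls of all 4 lists, and the absence of ex vivo ATAC and marks is their definition and not a result. The other PU.1 peaks fall into 11198 with a mark and no ATAC, 14780 with ATAC and no mark, 13693 with ATAC and 1 mark, and 19287 with ATAC and both marks.

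PU.1 is an ETS family factor that macrophages, microglia and B cells need for their development. It binds purine-rich sites around a GGAA core, and in macrophages it is known to open chromatin and to help recruit the enzymes that deposit H3K4 methylation at enhancers. H3K4me2 marks promoters and enhancers, H3K27ac marks the active ones, and ATAC reads come from accessible DNA.

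All samples came from the C57Bl6 strain, and no sample carries a mutation or transgene in the labels. Ages and sexes are not used here. Microglia were sorted as live CD11b+ CD45Low cells, and ChIP cells were fixed before the sort. The RNA comparisons used 2 libraries of microglia cultured for 7 d with IL34 and TGFβ, 5 cultured for 7 d with IL34, 5 ex vivo libraries taken straight after sorting and 4 of whole brain lysate. Cultures with IL34 for 6 h (2 libraries) and 24 h (3 libraries) give levels between, and 1 library of the 24 h group is labelled 22 h. IL34 is a ligand of the growth factor receptor CSF1R, and all cultures held serum, so culture, serum and IL34 cannot be told apart. The peak lists pool 2 libraries each of 7 d ATAC, 7 d H3K27ac, ex vivo PU.1, ex vivo ATAC, ex vivo H3K27ac and ex vivo H3K4me2, so no peak has a value per replicate, and 1 of the 7 d ATAC libraries is labelled 8 d. PU.1 and H3K4me2 lists exist here for ex vivo cells only, so PU.1 binding at 7 d was not analysed here. Nothing in the labels says that libraries of 1 group came from separate animals, and p-values then measure the spread between libraries.

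RNA libraries held 11.6 to 28.8 M counts (M, 1e6), and the pooled tag totals in the file headers were 15.2 M for 7 d ATAC, 27.6 M for 7 d H3K27ac, 30.7 M for PU.1, 23.8 M for ex vivo ATAC, 45.6 M for ex vivo H3K27ac and 55.6 M for H3K4me2. The sort was visible in the markers. The 8 microglial markers summed to 41542 to 49458 CPM (counts scaled to 1e6 per library) in ex vivo libraries and to 293 to 383 CPM in lysate, and the 8 neuronal markers to 2.48 to 16.4 CPM in ex vivo libraries and to 12067 to 13437 CPM in lysate. Ex vivo replicate 3 stood apart, with the highest sums of neuronal (16.4 CPM), astrocyte (167 CPM) and oligodendrocyte markers (222 CPM) among the ex vivo libraries. Neutrophil markers summed to 5.85, 138, 154, 2.70 and 34.3 CPM in the 5 ex vivo libraries and to at most 1.85 CPM at 7 d.

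No genome sequence was at hand, so sequence could be read only where a PU.1-alone peak reached a RefSeq promoter window, 250 bases before to 50 after a gene start (GRCm38.p6). That was so for 122 members, and 22 of these lay in a window with their whole length. The pieces printed next are the stretches before the start that surround a PU.1-type motif in 5 such promoters, and they are shown because the peak there can be placed to the base. They were chosen after the RNA values had been seen, to cover sites with and without chromatin change at 7 d. Capitals mark GAGGAAGT, a letter pattern typical of PU.1 sites, where the part of the window under the peak has it. Otherwise they mark its first 6 letters GAGGAA, in either orientation. All run 5′ to 3′ on the strand of the gene.
Wfdc17: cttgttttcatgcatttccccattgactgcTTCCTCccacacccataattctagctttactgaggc
Ifi47: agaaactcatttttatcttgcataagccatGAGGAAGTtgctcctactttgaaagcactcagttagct
Prtn3: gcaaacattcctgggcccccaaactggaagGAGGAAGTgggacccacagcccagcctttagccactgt
Rapgef5: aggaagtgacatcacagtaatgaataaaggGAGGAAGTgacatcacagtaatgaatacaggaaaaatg
Ccr1: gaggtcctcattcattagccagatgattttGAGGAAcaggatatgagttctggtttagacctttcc

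The Wfdc17 piece is chr11:83703987-83704052 on the plus strand, 69 to 4 bases before the start, and its motif centre lies 22 bases from the centre of the PU.1-alone peak chr11:83703898-83704098. The Ifi47 piece is chr11:49076409-49076476 on the plus strand, with 14 bases between motif and peak centre. The Prtn3 piece is chr10:79879542-79879609 on the plus strand, with 27 bases between them. The Rapgef5 piece is chr12:117516438-117516505 on the plus strand, with 21 bases between them, and the Ccr1 piece is chr9:123968786-123968851 on the minus strand, with 8 bases between them. In all 5 the motif sat under the body of the peak, which follows from the search, since only bases covered by the peak were searched.

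A match is a description of the letters and not a proven site. Over the promoters as a group the letter pattern was common at PU.1-alone peaks. GAGGAAGT, searched on both strands, lay in 7 of the 22 PU.1-alone peaks whose 201 bases were wholly inside a window, which is 31.8%. The share was 3.39% of 118 such peaks with a mark and no ATAC, 25.6% of 43 with ATAC and no mark, 8.21% of 268 with ATAC and 1 mark, and 5.10% of 1647 with ATAC and both marks. A stretch of the same length taken at bases 51 to 251 of all 32851 windows held the pattern in 2.07%. GAGGAA, which the longer pattern contains, lay in 14 of the 22 members (63.6%) and in 19.1% of all windows. Counting partly covered peaks as well, 22 of the 122 members held GAGGAAGT, near the share at sites with ATAC and no mark (23 of 133), and in 20 of these 22 it lay within 50 bases of the peak centre, at a median of 14 bases. The search was limited to bases under the peak, which bounds these distances.

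These promoter pieces also differed in base composition. The 22 whole members had a median GC content of 47.8% and 0.995 CG dinucleotides per 100 bases, the peaks with ATAC and no mark had 47.8% and 0.995, and the peaks with ATAC and both marks had 61.7% and 7.46. Across all windows the medians were 53.2% and 2.49. The members and the open but unmarked sites thus stood together at the CG-poor end, and the contribution of composition to the motif shares was not tested. Promoters are a small and particular part of the members, and no motif count is given for the rest.

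PU.1-alone peaks came late in the PU.1 list. The deposited list holds no usable score, but HOMER writes peaks from the highest score down, and the peak numbers followed the list order within each of 20 chromosomes (Spearman correlation 0.997 to 0.999), so list position was used as a rank of PU.1 signal, an order the file itself does not state. The median position was 65319 for the members, with quartiles at 51997 and 73244, against 37534.5 for peaks with a mark and no ATAC, 43749.5 with ATAC and no mark, 28084 with ATAC and 1 mark and 19311 with ATAC and both marks. Members made up 0.440% of the first decile of the list and 80.5% of the last. The plot of classes along the list shows the share of members growing at every step.

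**Figure D1:**
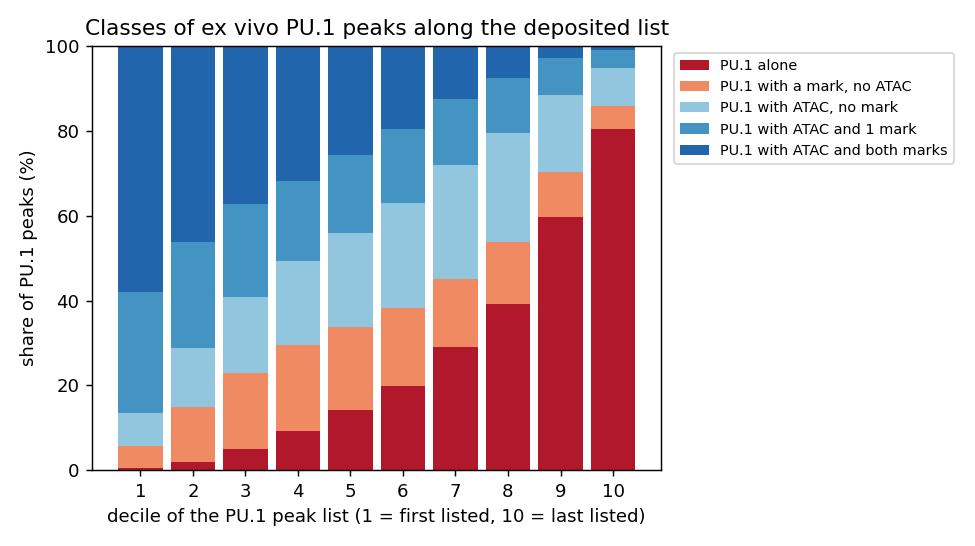
Share of each class of ex vivo PU.1 peaks (y axis, % of the peaks in the decile) by decile of the deposited PU.1 list (x axis, 1 listed first). PU.1-alone peaks (red, bottom) are 0.440% of decile 1 and 80.5% of decile 10, while peaks with ATAC and both marks (dark blue, top) are 57.9% of decile 1 and 0.905% of decile 10.

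Some members stood high in the list. Among the first 1000 PU.1 peaks 2 were PU.1-alone, among the first 5000 there were 12, and among the first 10000 there were 54. The first lay at position 83, at chr19:5291666-5291866 inside Sf3b2, which encodes a splicing factor subunit, 2.33 kb from the nearest ex vivo peak of any other list. The next lay at position 395, at chr11:107784371-107784571 inside Cacng4, a regulatory subunit gene of calcium channels and AMPA receptors, 1.42 kb from the nearest peak. The third, at position 2342 and chr4:95048274-95048474, lay 0.662 kb from Jun, an AP-1 subunit gene, 0.849 kb from the nearest peak. None of these 3 met a 7 d ATAC or H3K27ac peak. Position 2626, at chr2:129196350-129196550 near Slc20a1, a phosphate transporter gene, met both 7 d peaks, and it lay only 0.053 kb from an ex vivo peak.

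The rule excludes any overlap with the 3 ex vivo lists, so the gaps to them only describe the members. No gaps of other positions were set beside them, so whether members lay nearer or farther than other sequence was not tested. The median gap to the nearest ex vivo peak of any of the 3 lists was 5.46 kb, with quartiles at 1.75 and 14.8 kb. The median gap was 6.89 kb to the nearest ATAC peak, 11 kb to the nearest H3K4me2 peak and 22.0 kb to the nearest H3K27ac peak. At the threshold itself 7 members touched a peak of another list end to end without sharing a base, and 68 lay within 10 bp. On the other side 63 PU.1 peaks left the class with an overlap of 10 bp or less. A member just inside was chr11:21377491-21377691, 6.32 kb from Ugp2, which abutted an ATAC peak, and a peak just outside was chr9:121476996-121477196, 2.18 kb from Trak1, which shared 1 bp with an H3K4me2 peak.

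Few members lay at promoters. A gene body held the centre of 60.6% of them (95% Wilson interval 60.0 to 61.3%), against 72.7% of peaks with a mark and no ATAC, 60.5% with ATAC and no mark, 64.9% with ATAC and 1 mark, and 69.0% with ATAC and both marks. Only 0.591% of members reached a promoter window, against 6.50%, 0.900%, 5.39% and 25.1% in the same order of classes. The windows at hand cover 79.9% of protein-coding genes and none on chromosome 18, so these shares are lower bounds. The nearest other PU.1 peak was a median of 6.94 kb away, against 1.56 kb for the sites with ATAC and both marks. Members made up 16.8% to 30.1% of the PU.1 peaks of a chromosome, with the lowest share on X. The intervals here and after cover counting error only, treat peaks as independent and say nothing of the spread between libraries.

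The chromatin of cultured cells is a measure the rule did not use, and it shows how many of these sites were in open or acetylated chromatin after 7 d. Of the members 3426 met a 7 d ATAC peak (16.6%, 95% interval 16.1 to 17.1%) and 710 met a 7 d H3K27ac peak (3.44%, 3.20 to 3.70%). Both peaks lay on 331 members, ATAC alone on 3095, H3K27ac alone on 379 and neither on 16838 (81.6%). Among the 20 chromosomes the ATAC share ran from 13.2% to 22.4% and the H3K27ac share from 2.30% to 6.17%, both highest on X.

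All 4 other PU.1 classes had higher shares. A 7 d ATAC peak lay on 25.5% of sites with a mark and no ATAC, 76.8% with ATAC and no mark, 83.4% with ATAC and 1 mark and 87.0% with ATAC and both marks. A 7 d H3K27ac peak lay on 47.5%, 8.44%, 31.8% and 74.4% of them. The ranges over chromosomes overlapped those of the members for ATAC in the class with a mark and no ATAC (20.1% to 29.4%) and for H3K27ac in the class with ATAC and no mark (5.99% to 16.9%). The difference was not tested over libraries, since each list is 1 pooled call. The 7 d ATAC list holds 112977 peaks from 15.2 M tags at a threshold of 11 tags, and the ex vivo list 90674 peaks from 23.8 M tags at a threshold of 13 tags, so the lists were called at different depths. The H3K27ac lists differed too. The 7 d list holds 31349 peaks from 27.6 M tags at a threshold of 17 tags. Its ex vivo counterpart holds 24520 peaks from 45.6 M tags at a threshold of 24 tags.

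**Figure D2:**
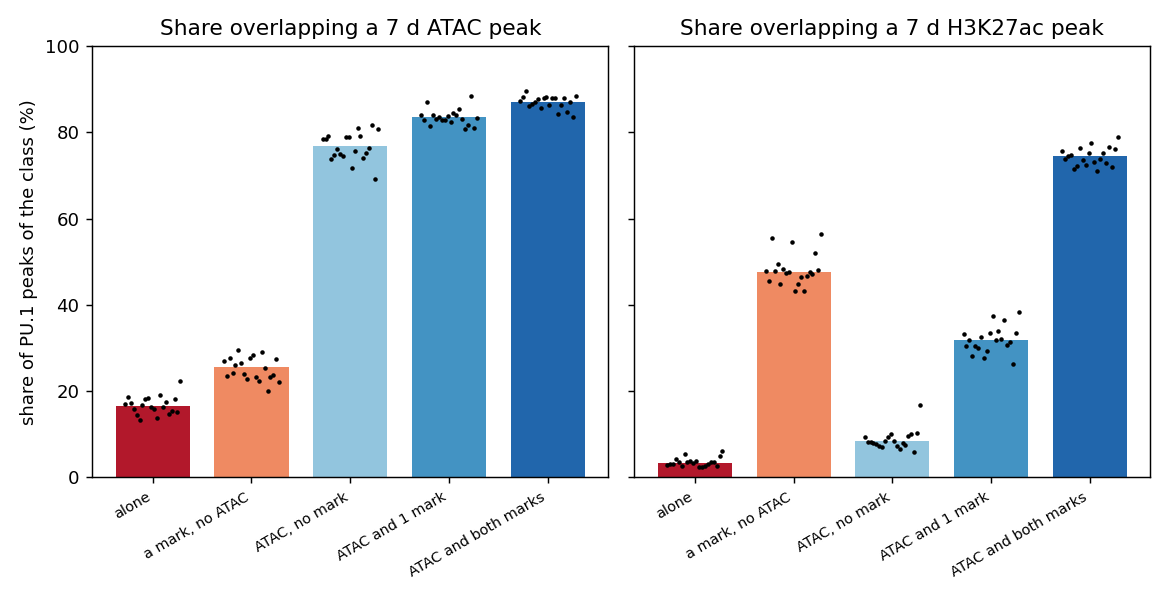
Share of the PU.1 peaks of each class (bars, %) that overlap a 7 d ATAC peak (left) or a 7 d H3K27ac peak (right); black points are the 20 chromosomes. PU.1-alone sites (leftmost) stand at 16.6% and 3.44%, and sites with ATAC and both marks at 87.0% and 74.4%.

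Both 7 d shares of the members were lower late in the PU.1 list. A 7 d H3K27ac peak lay on 8.57% of members in decile 1, on 13.8% in decile 2 and on 1.23% in decile 10. The ATAC share was 40% of 35 sites in the first decile, 25.6% in decile 4, 21.3% in decile 8 and 7.41% of 6410 sites in the last. Within a decile the members and the sites with a mark and no ATAC had like ATAC shares over the middle of the list, with 25.6% against 25.8% in decile 4 and 24.8% against 24.3% in decile 6. The H3K27ac shares of these 2 classes were apart. In decile 4 H3K27ac lay on 8.48% of members and on 55.2% of the marked sites, and in decile 8 on 3.97% and 30.8%.

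The 7 d H3K27ac share fell at each step of the gap to the nearest ex vivo peak, and the ATAC share had no such order. H3K27ac lay on 10.9% of 588 members under 0.1 kb from an ex vivo peak, 8.47% of those 0.1 to 0.5 kb away, 7.14% at 0.5 to 1 kb, 4.05% at 1 to 5 kb, 1.97% at 5 to 20 kb and 0.712% of the 4073 members 20 kb or more away. ATAC lay on 22.8%, 13.9%, 16.2%, 17.5%, 17.2% and 14.5% of the same sites. The median position in the PU.1 list also grew at each step, from 52360 under 0.1 kb to 72658 at 20 kb or more. Gap and list position were not separated. The 379 members that met 7 d H3K27ac without ATAC lay a median of 0.901 kb from an ex vivo peak, and the 3095 that met ATAC without H3K27ac a median of 5.79 kb. H3K27ac peaks are broad, with a median width of 1117 bp at 7 d against 201 bp for ATAC, so each covers more of the sequence around it.

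**Figure D3:**
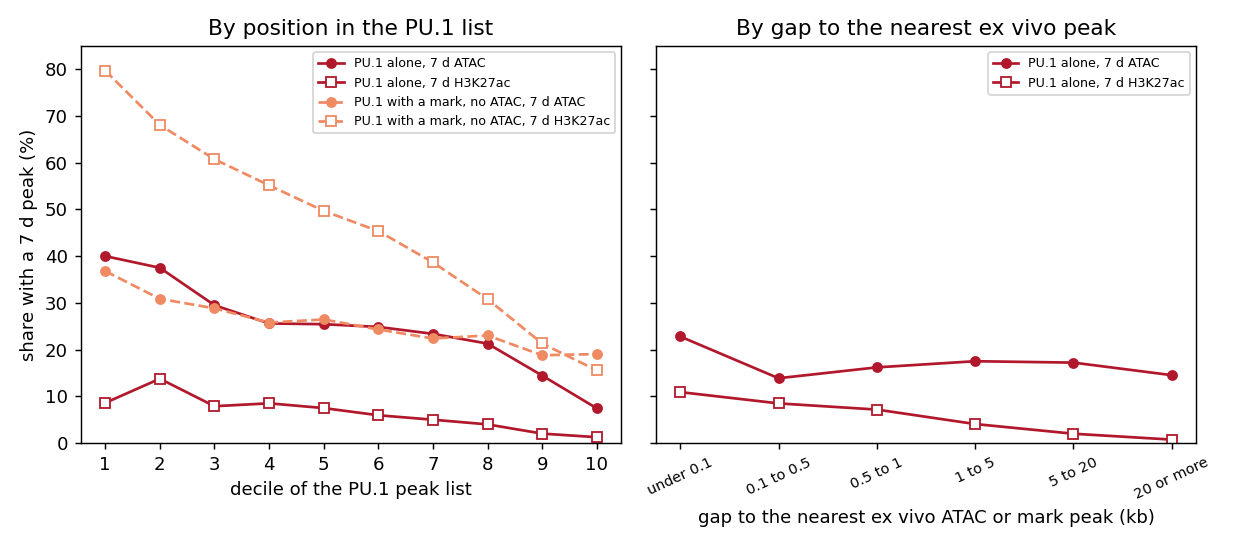
Share of PU.1 sites with a 7 d ATAC peak (filled circles) or a 7 d H3K27ac peak (open squares), in %, by decile of the PU.1 list (left; red, PU.1-alone; orange dashed, PU.1 with a mark and no ATAC) and, for PU.1-alone sites, by the gap to the nearest ex vivo peak in kb (right). The ATAC share of members goes down to 7.41% in decile 10 and the H3K27ac share down to 0.712% at gaps of 20 kb or more.

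For the RNA, each member was assigned to the nearest gene body within 100 kb. In this way 18710 members were placed at 9112 genes, 4913 with a single member, 3500 with 2 to 4, 605 with 5 to 9 and 94 with 10 or more. Nearness does not show that a site acts on a gene. The genes with the most members were large genes: Sdk1, an adhesion protein of 974 kb, had 31, Elmo1, an engulfment adaptor, 20, Exoc4, Runx1 and Tanc2 had 19, and Atxn1, Park2 and Smad3 had 18. Each of these genes also had PU.1 sites of the other classes. Elmo1 had 3 with a mark and no ATAC and 10 with ATAC and no mark. It also had 19 with ATAC and 1 mark and 18 with ATAC and both marks. Tanc2 had 2 in each of these classes. Whether the RNA of such genes goes with the members or with the other sites was not tested. The median length was 158 kb for genes with 5 or more members, against 15.1 kb for all annotated genes.

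Several of these genes fell in culture. Smad3, a signal transducer of the TGFβ receptor, had 71.0, 62.0, 61.4, 81.9 and 74.2 CPM at 7 d and 286, 252, 258, 341 and 314 CPM ex vivo, with no overlap (log2 change -1.99 ± 0.13 SE, edgeR adjusted p = 1.11e-09). Tanc2, a scaffold protein gene, averaged 189 ± 76.8 CPM at 7 d and 1701 ± 301 CPM ex vivo (SD, n = 5 each), a log2 change of -3.09 ± 0.29 (edgeR adjusted p = 9.27e-08). Sdk1 fell by 3.50 on the log2 scale, Elmo1 fell to 284 ± 22.7 CPM at 7 d, against 680 ± 109 CPM ex vivo, and Exoc4, an exocyst subunit gene, rose by 1.11 (edgeR adjusted p = 3.37e-07, 1.15e-07 and 1.81e-08). Park2, a ubiquitin ligase gene, fell by 1.68 (edgeR adjusted p = 0.00153). Runx1, a myeloid transcription factor with 266 CPM at 7 d and 252 CPM ex vivo, and Atxn1, with 80.5 and 97.4 CPM, were not called.

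In the comparison of 7 d with ex vivo microglia, genes near members as a whole moved about as all genes did. Of 13840 genes tested 34.8% were called higher at 7 d and 35.7% lower, by edgeR's quasi-likelihood test at an adjusted p under 0.05. Of the 9112 genes with a member 6278 passed the filter on low counts, 2141 were higher (34.1%) and 2379 lower (37.9%), with a median log2 change of -0.06 against -0.02 for all tested. Genes with 5 or more members were called lower in 304 of 597 tested cases (50.9%) and higher in 162 (27.1%), with a median of -0.42. These are also the long genes, and gene length was not separated from the number of sites.

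Genes whose PU.1-alone site met a 7 d H3K27ac peak leaned the other way. Of 597 such genes 533 were tested, 269 were higher at 7 d (50.5%) and 143 lower (26.8%), with a median log2 change of 0.45. Where ATAC and H3K27ac lay on the same site, 137 of 273 tested genes were higher (50.2%) and 71 lower (26.0%), also with a median of 0.45. Where a member met a 7 d ATAC peak, whatever its H3K27ac, 681 of 1894 tested genes were higher (36.0%) and 701 lower (37.0%), with a median of -0.02. Genes with members and no 7 d peak on any of them were higher in 1361 of 4202 cases (32.4%) and lower in 1636 (38.9%). The same lean stood at open but unmarked PU.1 sites that met 7 d H3K27ac, with 419 of 771 genes higher (54.3%) and 180 lower (23.3%), so it was not particular to the members. Sites that already had a mark and no ATAC ex vivo and met 7 d H3K27ac had 1296 of 3459 genes higher (37.5%) and 1268 lower (36.7%).

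The 8 largest rises among genes with a member that met both 7 d peaks began with Slc41a2, a magnesium transporter gene. It had 38.4, 30.6, 25.1, 34.2 and 34.2 CPM at 7 d and 0.0936, 0, 0.183, 0.075 and 0 CPM ex vivo (log2 change 8.68 ± 0.34, edgeR adjusted p = 2.44e-12). The nearest of its members with both 7 d peaks lies at chr10:83215721-83215921, 15.0 kb outside the gene. Cd36, a scavenger receptor for oxidised lipids and fatty acids, had 451, 890, 715, 445 and 410 CPM at 7 d and 0.842, 2.26, 3.79, 0.075 and 0.916 CPM ex vivo (8.54 ± 0.57, edgeR adjusted p = 2.84e-09). All its 7 d libraries were far above all ex vivo ones.

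The Cd36 member lies inside the gene at chr5:17839644-17839844, 2.39 kb from the nearest ex vivo ATAC peak. The nearest ex vivo H3K27ac peak was 1286 kb away. Cd36 also had 2 PU.1 sites with ATAC and no mark and 1 with ATAC and 1 mark. At 7 d the PU.1-alone site carried a narrow ATAC peak and an H3K27ac peak, 1 of several in that stretch of the gene. With TGFβ added, Cd36 stood at 7.24 and 17.4 CPM, against 582 ± 211 CPM at 7 d without it (log2 change -5.47 ± 0.73, edgeR adjusted p = 6.96e-05).

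Slamf7, an immune cell receptor of the SLAM family, had 92.9, 63.8, 73.9, 105 and 88.3 CPM at 7 d and 0.982, 1.39, 2.60, 1.65 and 0.687 CPM ex vivo (5.92 ± 0.26, edgeR adjusted p = 1.02e-11). The nearest of its members with both 7 d peaks lies at chr1:171665724-171665924, 12.8 kb outside the gene and 6.71 kb from the nearest ex vivo peak. Slamf7 RNA was already 122 CPM on average at 6 h and 229 CPM at 24 h, and with TGFβ it stood at 10.6 CPM (log2 change -2.92 ± 0.32, edgeR adjusted p = 5.18e-06).

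Myof, a membrane repair protein gene, had 314, 254, 273, 272 and 290 CPM at 7 d and 0.281, 1.06, 1.83, 0.300 and 0.0573 CPM ex vivo (8.65 ± 0.46, edgeR adjusted p = 2.14e-10). Gsn, encoding the actin-severing protein gelsolin, averaged 299 ± 31.6 CPM at 7 d and 4.79 ± 2.11 CPM ex vivo (6.03 ± 0.27, edgeR adjusted p = 1.49e-11). The other rises were Arhgap10, a GTPase-activating protein, at 7.85, Id3, an inhibitor of helix-loop-helix factors, at 6.52, and Sash1, a scaffold protein, at 5.99 on the log2 scale (edgeR adjusted p = 2.17e-13, 2.89e-07 and 1.84e-10). Taking for each of the 8 genes the nearest member with both 7 d peaks, these sites lay between 0.763 and 13.8 kb from the nearest ex vivo peak of any list, and those of Cd36, Myof, Gsn, Arhgap10 and Sash1 lay inside the gene. Of the 8 genes, those called lower with TGFβ than at 7 d without it were Cd36, Slamf7, Myof (log2 change -1.93) and Arhgap10 (-1.29), and the other 4 were not called.

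**Figure D4:**
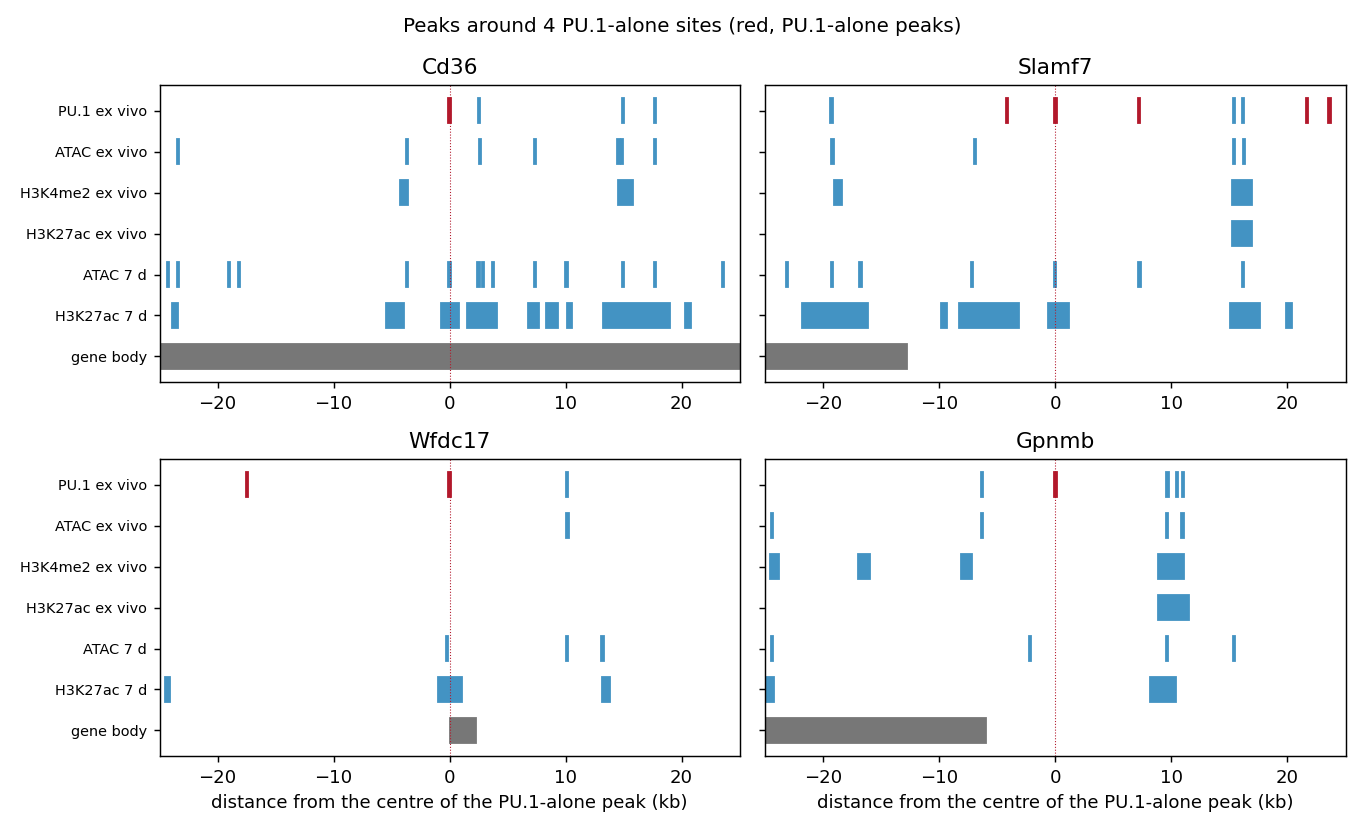
Deposited peaks within 25 kb of 4 PU.1-alone sites (x axis, distance from the centre of the site in kb), with a row for each peak list and for the gene body (grey). Red, PU.1-alone peaks; blue, other peaks. The Cd36 and Slamf7 sites meet ATAC and H3K27ac peaks at 7 d, the Wfdc17 site meets H3K27ac at 7 d with a 7 d ATAC peak just beside it, and the Gpnmb site meets neither.

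Genes also fell beside members that met both 7 d peaks. The 5 largest falls were Mmp2, a gelatinase gene, at -5.07, Pecam1, an adhesion protein gene, at -3.99, Myo18b, a myosin gene, at -3.87, Ier3, an early response gene, at -3.78, and Tagap, a GTPase-activating protein gene of leukocytes, at -3.77 on the log2 scale (edgeR adjusted p = 2.29e-11, 7.85e-11, 1.10e-11, 0.000123 and 3.74e-08). Mmp2 had 1.78, 2.60, 2.00, 1.40 and 1.03 CPM at 7 d and 54.4, 46.0, 59.1, 78.3 and 71.4 CPM ex vivo, and with TGFβ 31.3 and 45.3 CPM (log2 change against 7 d 4.52 ± 0.26, edgeR adjusted p = 5.26e-09). Ier3 ex vivo libraries ran from 6.85 to 105 CPM and its 7 d libraries from 3.13 to 4.00 CPM. The site of Pecam1 lay at 1.36 kb from the gene and 0.574 kb from an ex vivo H3K27ac peak. Each of these genes also had other PU.1 sites, 4 to 12 of them besides members.

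Large changes also stood beside members with no 7 d peak. Gpnmb, a glycoprotein of phagocytes rich in lysosomes, had 3320, 2100, 2700, 2660 and 3650 CPM at 7 d and 1.26, 3.58, 1.96, 0.375 and 0.458 CPM ex vivo (log2 change 10.96 ± 0.56, edgeR adjusted p = 1.24e-10). Its member, at chr6:49064057-49064257 and 5.98 kb outside the gene, sat at list position 77611 and met neither 7 d list. Gpnmb also had 1 PU.1 site with ATAC and no mark and 1 with ATAC and 1 mark. Atp6v0d2, a subunit gene of the lysosomal proton pump, rose by 10.62 on 4 counts in all ex vivo libraries together, Flrt2, an adhesion protein gene, by 9.10, and Plxna2, a semaphorin receptor gene, by 7.72 (edgeR adjusted p = 3.45e-10, 9.30e-10 and 1.02e-08). Plxna2 averaged 214 CPM in lysate.

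Among the 4 largest falls in that group Siglech and Slc2a5 belong to the list of resting microglia genes described further on. Siglech, a sialic acid-binding lectin of microglia, had 1.89, 1.57, 1.81, 0.321 and 0.786 CPM at 7 d and 1260, 1600, 1550, 1340 and 1280 CPM ex vivo (log2 change -10.03 ± 0.41, edgeR adjusted p = 8.06e-12). Slc2a5, a fructose transporter gene, averaged 0.817 ± 0.574 CPM at 7 d and 640 ± 88.5 CPM ex vivo (-9.55 ± 0.50, edgeR adjusted p = 1.82e-10). Both genes also had PU.1 sites with ATAC and both marks, 3 at Siglech and 1 at Slc2a5. Spns2, a sphingosine phosphate exporter gene, fell by 8.31 and Mycl, a relative of Myc, by 8.00 (edgeR adjusted p = 1.65e-11 and 4.50e-11). The Slc2a5 member, at chr4:150127448-150127648 inside the gene, held position 28611 of the PU.1 list, the highest when the nearest member of each of these 8 genes is taken. In 7 d cultures with TGFβ, Siglech stood at 56.9 and 47.5 CPM, Slc2a5 at 15.1 and 4.78 CPM and Spns2 at 26.8 and 14.5 CPM, all called above 7 d without it, and Mycl at 0.126 and 0.173 CPM was not called.

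**Figure D5:**
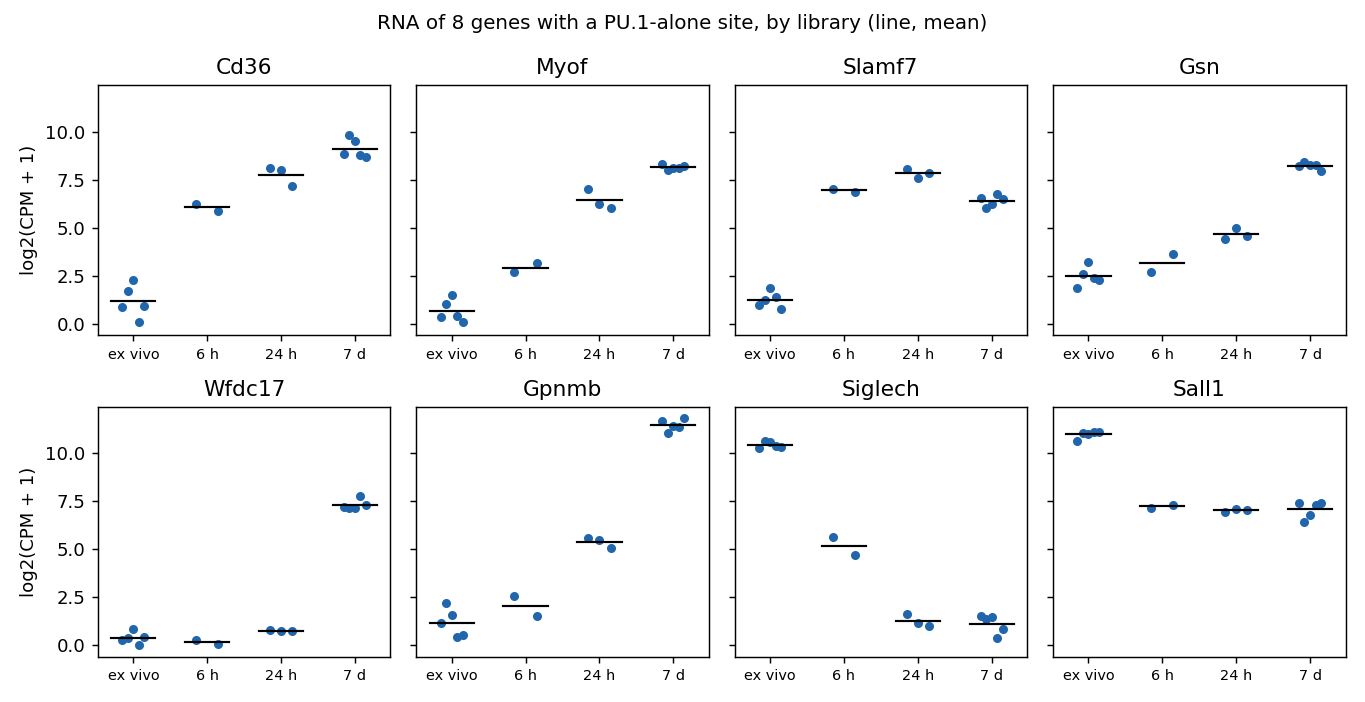
RNA level of 8 genes with a PU.1-alone site, as log2(CPM + 1) per library (points) with the group mean (line), for ex vivo microglia and after 6 h, 24 h and 7 d in culture. Cd36, Myof, Slamf7, Gsn, Wfdc17 and Gpnmb are higher in every 7 d library than in every ex vivo library, and Siglech and Sall1 are lower.

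At the 5 promoters whose sequences are printed, the RNA differed from gene to gene. Wfdc17, a gene of the WAP protease inhibitor family, had 147, 140, 144, 217 and 158 CPM at 7 d and 0.234, 0.332, 0.822, 0 and 0.344 CPM ex vivo (log2 change 8.80 ± 0.34, edgeR adjusted p = 2.42e-12). It stood at 0.140 CPM at 6 h and 0.710 CPM at 24 h on average, and at 17.8 CPM on average with TGFβ, lower than at 7 d without it (-3.09 ± 0.34, edgeR adjusted p = 7.21e-06). Its promoter peak held position 14254 of the PU.1 list, 9964 bp from any ex vivo ATAC or mark peak, and both PU.1 peaks assigned to the gene were PU.1-alone. A further PU.1 peak, not assigned to it, lay 10.05 to 10.25 kb from the centre of the promoter peak, on an ex vivo ATAC peak. A 7 d H3K27ac peak covered the promoter peak, and a 7 d ATAC peak ended just short of it.

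Ifi47, an interferon-induced GTPase gene, had 2.57, 8.74, 7.80, 4.37 and 0.537 CPM at 7 d and 0.515, 1.26, 2.24, 0.975 and 0.458 CPM ex vivo, so the groups overlapped (2.19 ± 0.81, edgeR adjusted p = 0.0239), and the call was lost without any of 4 single libraries. Its promoter peak met both 7 d peaks. Prtn3, the neutrophil granule protease proteinase 3, was at 0 in all 7 d libraries and had 4 counts in all ex vivo libraries together, all in replicate 3, too few to be tested. Rapgef5, an exchange factor of Rap GTPases with 10 members, fell by 1.63 (edgeR adjusted p = 4.48e-05). Ccr1, a chemokine receptor whose promoter peak met a 7 d ATAC peak, averaged 13.2 CPM at 7 d and 19.2 CPM ex vivo and was not called. A further promoter member, at chr17:29090581-29090781, reached into the promoter window of Cdkn1a with a 7 d H3K27ac peak on it. Cdkn1a encodes the cell cycle inhibitor p21 and had 593, 558, 464, 752 and 799 CPM at 7 d and 43.1, 11.9, 14.7, 23.1 and 22.4 CPM ex vivo (4.83 ± 0.34, edgeR adjusted p = 4.07e-09).

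Sorted microglia were then set against whole brain lysate, to see in which genes of the brain the members lay. The genes were split by whether they had PU.1 sites of other classes. For 1557 genes all assigned PU.1 peaks were PU.1-alone. Of these 18.3% had a mean of at least 1 TPM (the deposited level scaled by gene length and depth) ex vivo and 44.8% in lysate. Among all 24415 annotated genes the shares were 48.6% ex vivo and 59.7% in lysate, and among the 7794 genes with no PU.1 site they were 19.3% and 30.8%. Among the 7509 genes with PU.1 sites of the other classes only they were 67.5% and 74.6%.

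Of all 15335 genes tested in this comparison 39.1% were called higher ex vivo and 43.5% lower. Of the 1557 genes with PU.1-alone sites only, 752 passed the filter, 110 were higher ex vivo and 555 lower, which is 14.6% and 73.8% of those tested. A gene silent in microglia could pass the filter only through its level in lysate, so the second share is set in part by the filter. Genes with no PU.1 site leaned the same way, with 497 of 2239 tested higher (22.2%) and 1368 lower (61.1%). Genes with PU.1 sites of the other classes only had 43.4% higher and 37.4% lower of 6025 tested. Of the 9112 genes with any member 2869 of the 7023 tested were higher ex vivo (40.9%) and 3032 lower (43.2%), which is near the shares over all genes. In bulk RNA, fewer cells of a type and less RNA per cell cannot be told apart, and the lysate holds microglia too.

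The 5 largest falls ex vivo against lysate among genes with a member began with Sst, the neuropeptide somatostatin. It had 0 counts in the 5 ex vivo libraries and 172, 187, 169 and 154 CPM in lysate, at least 5159-fold lower ex vivo with a floor of 3 counts over the group. Csmd1, a complement regulator gene with 4 members and no other PU.1 site, had 0 counts ex vivo and 117, 96.7, 127 and 97.3 CPM in lysate, at least 3188-fold lower. B4galnt4, a glycosyltransferase gene, and Nptx2, a pentraxin of synapses, were at 0 ex vivo and at 95.6 and 92.7 CPM on average in lysate, at least 2838-fold and 2931-fold lower. Mir124a-1hg, the host transcript of a neuronal miRNA, had 2 counts ex vivo and 358 CPM on average in lysate, a ratio of lysate to ex vivo of 15913 with a 95% counting interval of 4405 to 131404. All the PU.1 peaks assigned to Sst, Csmd1 and Nptx2 were PU.1-alone, and B4galnt4 had 4 others and Mir124a-1hg 1 other.

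The 5 largest rises ex vivo began with Rgs1, a regulator of chemokine receptor signalling. It had 246, 32.2, 15.0, 72.3 and 71.8 CPM ex vivo and 1 count in the 4 lysate libraries, a ratio of 6455 with a 95% counting interval of 1158 to 254970. Ccl12, a chemokine, averaged 60.0 ± 53.5 CPM ex vivo against 3 counts in lysate, a ratio of 1440 (493 to 6987). Slamf6, a SLAM family receptor, averaged 21.2 ± 4.72 CPM against 3 counts, a ratio of 493 (169 to 2394). Osm, the cytokine oncostatin M, averaged 40.3 ± 23.7 CPM ex vivo and 0.0732 ± 0.0145 CPM in lysate, a log2 change of 9.32 ± 0.78 (edgeR adjusted p = 6.78e-07). Nlrp1c-ps, an inflammasome pseudogene, stood at 113 and 0.189 CPM on average, and its reads could be shared with its related genes. Each of the 5 had PU.1 sites of other classes beside the members, 14 in the case of Rgs1.

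TGFβ added to the 7 d culture was the last comparison. Of 13840 genes tested 9.57% were called higher with TGFβ and 6.52% lower. Of 6278 tested genes with a member 751 were higher (12.0%) and 520 lower (8.28%). Of the 533 tested genes whose member met a 7 d H3K27ac peak, 63 were higher (11.8%) and 98 lower (18.4%), with a median log2 change of -0.13 against -0.04 for all genes. This was not particular to the members. At open but unmarked PU.1 sites that met 7 d H3K27ac, 96 of 771 genes were higher (12.5%) and 141 lower (18.3%), with a median of -0.16. Both comparisons of cultured cells share the same 5 libraries of 7 d without TGFβ, so a gene high in those libraries is pushed up in the first and down in the second. With only 2 TGFβ libraries the counts rest on each of them: without TGFβ replicate 1 or 2 the genes with a member called lower numbered 267 and 213, and those with 7 d H3K27ac on a member 69 and 52.

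Counts over 6 gene lists show where the members stood among known programmes. For scale, 9112 of all 24415 annotated genes had a member. Of 24 genes of resting microglia 11 had a member, 26 of their 200 PU.1 sites were PU.1-alone (against 25.9% of all PU.1 peaks), and 23 of the 24 had a site with ATAC and both marks. Among the receptors of the list, Tgfbr1, a subunit of the TGFβ receptor, had 5 members and Siglech 1. Csf1r, the growth factor receptor microglia need, had none, with 5 sites with a mark and no ATAC and 4 with ATAC and both marks, and P2ry12, Cx3cr1 and Spi1 itself also had no member. Sall1, the zinc finger factor of microglial identity, had 5 members and 8 other sites, and fell to 139 ± 38.3 CPM at 7 d, against 2032 ± 255 CPM ex vivo. At 7 d 10 of the 11 genes were called lower, against 12 of the 13 genes of the list without a member and 35.7% of all genes tested, and Mef2c, a myeloid transcription factor at 555 and 600 CPM, was not called. With TGFβ the same 10 were called higher than at 7 d without it and Mef2c lower, against 10 higher of the 13 without a member and 9.57% higher and 6.52% lower over all genes.

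Of 25 genes of phagocytosis, lysosome and lipid handling 14 had a member, and 22 of their 161 PU.1 sites were PU.1-alone (13.7%). At 7 d 12 of the 14 were called higher, against 9 of the 11 genes of the list without a member and 34.8% of all genes tested. Among the 12 were Lpl, the lipase that frees fatty acids from lipoproteins, at 10328 CPM at 7 d and 33.2 CPM ex vivo, and Mmp12, macrophage elastase, at 2103 and 1.56 CPM. Abca1, the cholesterol exporter, was lower (-2.47), and Axl, a receptor for dying cells, was not called. With TGFβ, 5 of the 14 were called lower and 3 higher than at 7 d without it, against 4 and 5 of the 11 without a member and 6.52% and 9.57% of all genes. Apoe, the lipid carrier apolipoprotein E, had no member and 1 PU.1 site, with ATAC and 1 mark.

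Of 21 interferon response genes 8 had a member, and 10 of their 42 PU.1 sites were PU.1-alone (23.8%). All 8 were called higher at 7 d, against 11 of the 13 genes of the list without a member and 34.8% of all genes tested, from Irf9, part of the interferon-activated complex, at 0.39 (edgeR adjusted p = 0.0499) to Ifitm3, an antiviral membrane protein, at 5.70 on the log2 scale. At Ifi204, a DNA sensor gene, a member met a 7 d H3K27ac peak. Of 20 inflammatory genes 8 had a member, and 15.5% of the PU.1 sites of this list were PU.1-alone. Of these 8 genes 2 were higher at 7 d (Cd14, the lipopolysaccharide co-receptor, and Ccl5, a chemokine) and 3 lower (Il1b, Il6 and Nfkbiz). Those counts lie near the shares over all genes, 34.8% and 35.7%, and 3 of the 12 inflammatory genes without a member were higher and 4 lower.

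The largest share of PU.1-alone sites among the 6 lists was at myeloid genes of other lineages. There 12 of 20 genes had a member, and 20 of the 52 PU.1 sites were PU.1-alone (38.5%, against 25.9% of all PU.1 peaks). In this list 3 genes had a site with ATAC and both marks. Ly6g and Cd177, surface proteins of neutrophils, had 1 PU.1 site each, and it was PU.1-alone. The other neutrophil genes of the list differed. S100a9, Mpo, Elane and Camp had no PU.1 site, and S100a8, Prtn3 and Ltf had sites of other classes beside members. Ltf, the granule protein lactoferrin, had 2 members, each with a 7 d ATAC peak, and fell at 7 d (log2 change -8.19, edgeR adjusted p = 5.85e-05). Its ex vivo mean was 23.1 CPM, in libraries whose neutrophil marker sums ran from 2.70 to 154 CPM, and the part of neutrophil RNA in this fall was not tested. Ccr2, a chemokine receptor of monocytes, had 4 members, 3 with a 7 d ATAC peak and 3 with a 7 d H3K27ac peak, at 4.73 CPM at 7 d and 12.2 CPM ex vivo (-1.28, edgeR adjusted p = 0.00840). Of 15 lymphoid genes 5 had a member, and 21.2% of the PU.1 sites of this list were PU.1-alone. Among the 5 was Pax5, a regulator of B cells, and no mean at 7 d or ex vivo was above 0.0457 CPM for these 5.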

How the data were processed

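RNA, ATAC and ChIP libraries of mouse microglia were analysed from deposited tables. Read counts per gene symbol were deposited by the authors as whole numbers. TPM values were deposited by the authors in a table called trimmed, and were used only for levels set between genes. Peak positions (mm10, per the submitters' processing notes) were deposited as lists without a usable score. Per the file headers HOMER called each list on 1 pooled tag directory, ATAC without input and ChIP against input. The submitters' processing notes also name STAR, Bowtie2, bedtools, limma and R 3.3.1. Whether ATAC reads were shifted is not stated there.

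Overlaps of at least 1 bp, gaps, Wilson 95% intervals and gene assignment (nearest RefSeq GRCm38.p6 gene body within 100 kb, 24415 of 24537 symbols matched) were computed in Python 3.11.15. Counts were tested with edgeR 4.0.16 (TMM, filterByExpr, quasi-likelihood F test, Benjamini-Hochberg over all genes tested, threshold 0.05), all 17 microglial libraries in 1 model and 9 ex vivo and lysate libraries in another. The fit was tested on simulated data. CPM of single libraries use total counts. DESeq2 1.42.0, no filter, a replicate block, leaving out each library and other class or assignment rules were the alternatives.

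The sites, gene lists and naming rules were chosen with earlier results of these data known. Named genes were the 8 with the most members, the 8 largest rises and 5 largest falls at 7 d among genes with both 7 d peaks on a member, 4 and 4 among genes with none, 5 and 5 ex vivo against lysate (called, at least 20 CPM, libraries not overlapping, unnamed gene models left out), and 10 fixed genes. Promoter genes and list examples were added after their values were seen.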

Additional observations from a re-analysis of the deposited data

Results flagged for a closer look

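Single libraries stood far from the rest of their group, by the Dixon gap test at the 95% level, in 8 of 102 gene and group combinations tested; chance alone flags about 1 in 20. At 7 d, Sash1 was high in replicate 1 (565 CPM, the others 345 to 401) and Wfdc17 in replicate 4 (217 CPM, the others 140 to 158). Ex vivo, Pecam1 was low in replicate 2 (34.5 CPM, the others 40.1 to 42.3) and Rgs1 high in replicate 1 (246 CPM, the others 15.0 to 72.3).

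Ex vivo replicate 3, the library with the highest neuronal, astrocyte and oligodendrocyte marker sums, was high for 4 genes with a PU.1-alone site. Flrt2 had 0.502 CPM there and up to 0.140 CPM in the others, Folr2, a folate receptor of border macrophages, 4.02 CPM against 1.03 to 1.80 CPM, Rph3a, a synaptic vesicle protein gene, 4.2 CPM against 0.075 to 0.663 CPM, and Gpr37l1, an astrocyte receptor gene, 3.88 CPM against 0.0468 to 0.675 CPM. Rph3a and Gpr37l1 had no counts at 7 d, and 581 and 193 CPM on average in lysate. Whether RNA of other brain cells sets these values was not tested.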

How the results depend on the processing

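The number of PU.1-alone sites was 17119 to 21743 under the other class rules. When at least 0.5 of the PU.1 peak had to be covered to leave the class, 18.3% of members met a 7 d ATAC peak and 3.89% a 7 d H3K27ac peak. For members over 500 bp or over 1 kb from any ex vivo peak the H3K27ac share was 2.78% or 2.42%, and 60.0% of the second set lay in a gene body. When at least 0.5 of the member had to lie in the 7 d peak the shares were 15.4% and 2.92%, and with 7 d peaks within 1 kb they were 26.6% and 7.47%. DESeq2, no filter, other assignments and members over 1 kb away kept every count of called genes within 1.5 times. The numbers of replicates were not shown to pair the libraries. Same-numbered deviations correlated at -0.06 to 0.24 for 7 d with ex vivo (2 of 5 best with their own number) and at -0.09 to 0.10 for ex vivo with lysate (0 of 4). They correlated at 0.13 and 0.41 for the 2 TGFβ pairs, but deviations of only 2 TGFβ libraries mirror each other, so pairing could not be decided there. With the replicate as a block, genes called with TGFβ against 7 d numbered 348 higher and 215 lower with a member, and 30 higher and 53 lower with 7 d H3K27ac on a member; the other counts stayed within 1.5 times. Without each library in turn, genes with a member called lower with TGFβ numbered 213 to 525, and those with 7 d H3K27ac on a member 52 to 104; with 1 TGFβ library left, it is assumed to vary like the other groups. Of 753 alternatives for 59 gene results 747 kept their call, 4 lost it, all for Ifi47, 2 gained one (Atxn1 and Ms4a4c), and 0 reversed. Many of these genes were named for large called changes without overlap of libraries, so the choice itself favoured calls that stay. Peak lists pool libraries, so no replicate could be left out of them.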
